A study of Mus musculus with 21 samples.

Results

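The 10 genes described here are small intestinal enterocyte genes: Apoa1, Apoa4, Apoc3, Apob, Mttp, Sis, Lct, Alpi, Gata4 and Cubn. They were taken by name as 10 of the 25361 gene identifiers in a table of RNA-seq read counts from mouse cecum, the blind pouch at the start of the large bowel, and all 10 were found in it. The 21 C57BL/6 mice, a common inbred strain, were 3 weeks old at the start and all ate the Total Western Diet, a rodent diet modelled on a typical American diet, for 6 weeks. For another 3 weeks 6 of them stayed on that diet without broccoli (0%) and 5 each ate it with 0.5%, 1.0% or 2.5% broccoli powder. Each mouse gave 1 library, and the labels give no sex or cage and no record of which end of the cecum was taken.

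The absorptive cells of the small intestine pack dietary fat into chylomicrons. Apob is the protein scaffold of the particle, Mttp loads lipid onto it inside the cell, and Apoa1, Apoa4 and Apoc3 sit on its surface. Sis and Lct encode the brush border enzymes that split sucrose and milk sugar, Alpi encodes an intestinal alkaline phosphatase, Cubn encodes the receptor that takes up cobalamin bound to intrinsic factor in the ileum, and Gata4 encodes a transcription factor of the upper small intestine. The large bowel lies downstream of these steps and is not where dietary fat and sugars are mainly absorbed.

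The members fell into 3 patterns over the libraries. Apob and Alpi were high in all 21 libraries, with medians of 382 and 57.7 counts scaled to a common library size (CPM, defined per 1000000 counts). Apoa4, Mttp and Cubn had medians between 2.65 and 6.45 CPM and were up to 16.8 times as high as their median in single libraries, while Apoa1 and Sis had medians of 1.00 and 0.319 CPM and reached 323 and 48.1 CPM. Lct, Apoc3 and Gata4 stayed under 1 CPM everywhere.

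Library totals ran from 28514263 counts to 58594569 counts. In 6 libraries, which earlier work on these counts picked for small intestine markers that include some of the 10 genes, several members stand high: 0% replicate 5, 0.5% replicates 1 and 4, 1.0% replicate 1 and 2.5% replicates 1 and 2 (animals 16, 18, 76, 31, 40 and 42). Their height is therefore a description, and no test of the 6 against the other 15 was made. Car1, a carbonic anhydrase of the large bowel, was at 2868 to 5790 CPM over the 21 libraries, lowest in 0% replicate 5. Vil1, a structural protein of all gut epithelium, was at 358 to 561 CPM. No small intestine library was analysed, and in pieces of tissue fewer cells of a type and less RNA per cell cannot be told apart.

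Upstream sequence is given for Apob and Alpi, which were high in every library. It is also given for Cubn and Sis, which were low in most libraries, and for Lct, which was low in all. It comes from RefSeq on GRCm38.p6, whose promoter table held 8 of the 10 members. Each line gives up to 250 bases before RefSeq's start of the gene, without any base that GENCODE release 21 places inside the gene, 5′ to 3′ on the gene's own strand, and capitals mark any match to one of 4 short motifs.

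Apob, chr12:7977427-7977647, plus strand: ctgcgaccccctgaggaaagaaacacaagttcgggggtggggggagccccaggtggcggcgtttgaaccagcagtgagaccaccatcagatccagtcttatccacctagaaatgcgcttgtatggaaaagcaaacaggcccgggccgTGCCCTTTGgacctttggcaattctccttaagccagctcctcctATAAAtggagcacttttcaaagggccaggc
Alpi, chr1:87101607-87101856, minus strand: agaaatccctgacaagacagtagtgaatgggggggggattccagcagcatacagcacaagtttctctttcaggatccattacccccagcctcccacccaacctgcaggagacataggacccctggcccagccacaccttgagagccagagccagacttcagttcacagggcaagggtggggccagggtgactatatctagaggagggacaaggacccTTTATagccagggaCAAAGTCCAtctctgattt
Cubn, chr2:13491877-13492126, minus strand: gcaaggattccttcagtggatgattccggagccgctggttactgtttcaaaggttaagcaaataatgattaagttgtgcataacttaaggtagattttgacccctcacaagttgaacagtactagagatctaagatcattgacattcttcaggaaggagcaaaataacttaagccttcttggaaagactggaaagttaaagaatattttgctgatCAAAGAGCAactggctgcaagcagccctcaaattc
Sis, chr3:72967864-72968113, minus strand: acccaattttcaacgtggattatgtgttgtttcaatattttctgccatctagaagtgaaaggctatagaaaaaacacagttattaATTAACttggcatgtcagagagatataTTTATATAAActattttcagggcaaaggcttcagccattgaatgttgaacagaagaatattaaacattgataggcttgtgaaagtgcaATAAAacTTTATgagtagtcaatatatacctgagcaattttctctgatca
Lct, chr1:128328319-128328568, minus strand: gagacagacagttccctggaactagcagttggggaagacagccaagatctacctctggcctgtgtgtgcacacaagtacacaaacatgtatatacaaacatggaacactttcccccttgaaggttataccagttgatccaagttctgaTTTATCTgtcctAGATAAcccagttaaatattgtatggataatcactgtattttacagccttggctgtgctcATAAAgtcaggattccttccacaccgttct

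The motifs were chosen after the sequences were seen and were searched on both strands of RefSeq's whole 250-base windows of the 8 members. The window of Mttp lies inside its GENCODE gene, as do parts of those of Apoa1, Apoa4 and Apob. An HNF4-type motif, CAAAGNNCA, was found in the windows of Apob, Alpi, Cubn and Apoa4, 4 of the 8 members, and in 5.47% of 27025 promoters of 250 bases. A CDX-type motif, TTTAT, which overlaps the letters of a TATA box, was found before Apob, Sis, Lct and Alpi and in 38.1% of promoters. The HNF1 half-site GTTAAT was found in 1 of the 8 windows, that of Sis, and in 6.52% of promoters, and the GATA-type motif AGATAA was found 2 times before Lct and in 10.3% of promoters. The HNF4-type letters thus stand before both genes that were high everywhere, Apob and Alpi, and also before Cubn and Apoa4, which were low in most libraries. These are matches of letters and describe no binding.

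Apob (ENSMUSG00000020609, chr12:7977648-8016835 on GRCm38, plus strand, 37 distinct exons) was the most abundant member. At 0% broccoli it was at 275 CPM in the lowest library, a median of 351 CPM and 779 CPM in the highest, replicate 5. At 0.5% the 5 replicates were at 461, 382, 446, 465 and 390 CPM, and at 1.0% they were at 784, 395, 356, 303 and 302 CPM. At 2.5% they were at 493, 553, 336, 343 and 326 CPM. All libraries of the 4 diets thus overlapped, apart from 0% replicate 5 and 1.0% replicate 1, which lay above the rest. Per kilobase of exon the median of Apob was 27.5 CPM (RPKM), rank 1246 of 25268 genes, and the highest library was 2.05 times the median. The share of all Apob counts that came from the 6 named libraries was 38.2%.

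Mttp (ENSMUSG00000028158, chr3:138089854-138144968, minus strand), whose product works together with Apob, was far less abundant, with a median of 0.566 RPKM. At 0% its lowest, median and highest libraries were at 2.90, 3.53 and 44.9 CPM, the highest again replicate 5. The 0.5% replicates were at 6.76, 3.19, 3.86, 12.2 and 2.90 CPM and the 1.0% replicates at 59.1, 3.14, 3.04, 2.72 and 4.04 CPM. The 2.5% replicates were at 11.4, 8.05, 3.17, 3.38 and 2.98 CPM. The 15 unnamed libraries lay within a narrow band of 2.72 to 4.05 CPM, and all 6 named libraries lay above it. Mttp shares 457 exonic bases with Trmt10a on the opposite strand, a gene at 3.02 to 4.91 CPM in the 21 libraries. It also shares 132 with the opposite-strand gene Gm43691, which is not in the table. Whether the counting used strand is not stated in these sources, so part of the low Mttp level is uncertain. P4hb, the other subunit of the transfer protein, was at 293 to 459 CPM, and Apobec1, which edits the Apob transcript, at 82.3 to 184 CPM.

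The genes of Apoa1 (ENSMUSG00000032083, chr9:46228580-46230466, plus strand), Apoc3 (ENSMUSG00000032081, chr9:46232933-46235636, minus strand) and Apoa4 (ENSMUSG00000032080, chr9:46240696-46243459, plus strand) lie side by side, with 2466 bases between Apoa1 and Apoc3 and 5059 bases between Apoc3 and Apoa4. Each of these genes was highest in 0% replicate 5 and 1.0% replicate 1, Apoc3 on few counts. They differed in level and in the rest of the named libraries. In Apoa1 and Apoa4 all 6 named libraries lay above all other 15, and in Apoc3 only 2 of the 6 did.

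Apoa1 was at 0.252, 0.960 and 317 CPM in the lowest, median and highest 0% library, the highest being replicate 5. The 0.5% replicates were at 23.3, 2.01, 2.13, 45.5 and 0.854 CPM, and the 1.0% replicates at 323, 0.861, 0.401, 0.836 and 3.07 CPM. The 2.5% replicates were at 20.4, 21.9, 0.836, 0.904 and 1.00 CPM. The named libraries began at 20.4 CPM and the others ended at 3.07 CPM, so the values left a gap with no library in it. Of all Apoa1 counts 97.5% came from the 6 libraries, and the highest library was 322 times the median. By SD of log2 CPM over the 21 libraries Apoa1 ranked 5th of 15652 genes. In 0% replicate 5 it was the 70th most abundant gene per kilobase and in 1.0% replicate 1 the 74th, against rank 11911 by its median.

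Apoa4 was less sharply divided. At 0% its lowest, median and highest libraries were at 0.730, 2.66 and 41.4 CPM, and the 0.5% replicates were at 12.2, 3.09, 2.65, 14.01 and 4.37 CPM. The 1.0% replicates were at 23.3, 0.815, 1.84, 1.05 and 1.22 CPM, and the 2.5% replicates at 4.42, 16.1, 2.46, 2.33 and 1.06 CPM. The lowest named library, 2.5% replicate 1, lay next to the highest unnamed one, 0.5% replicate 5, which had 220 Apoa4 counts and 43 Apoa1 counts. The 6 libraries gave 77.9% of the counts. Apoa4 shares 634 exonic bases with Gm47528 on the opposite strand, which had 0 counts in all 21 libraries. It also shares 632 with the opposite-strand gene Gm10680, which is not in the table.

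Apoc3, an inhibitor of triglyceride clearance, was barely detected. It had 70 counts over all 21 libraries and 0 counts in 7 of them. The largest counts were 16 in 0% replicate 5 and 14 in 1.0% replicate 1, and the next were 7 in 0.5% replicate 4 and in 2.5% replicate 3, of which the latter is not among the 6. A count of 0 allows up to 3 counts, which is 0.0596 to 0.0824 CPM in the 7 libraries at 0 and covers counting error only. Apoc3 was thus also highest in the libraries in which its neighbour Apoa1 reached 317 and 323 CPM, but had only 16 and 14 counts there.

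**Figure D1:**
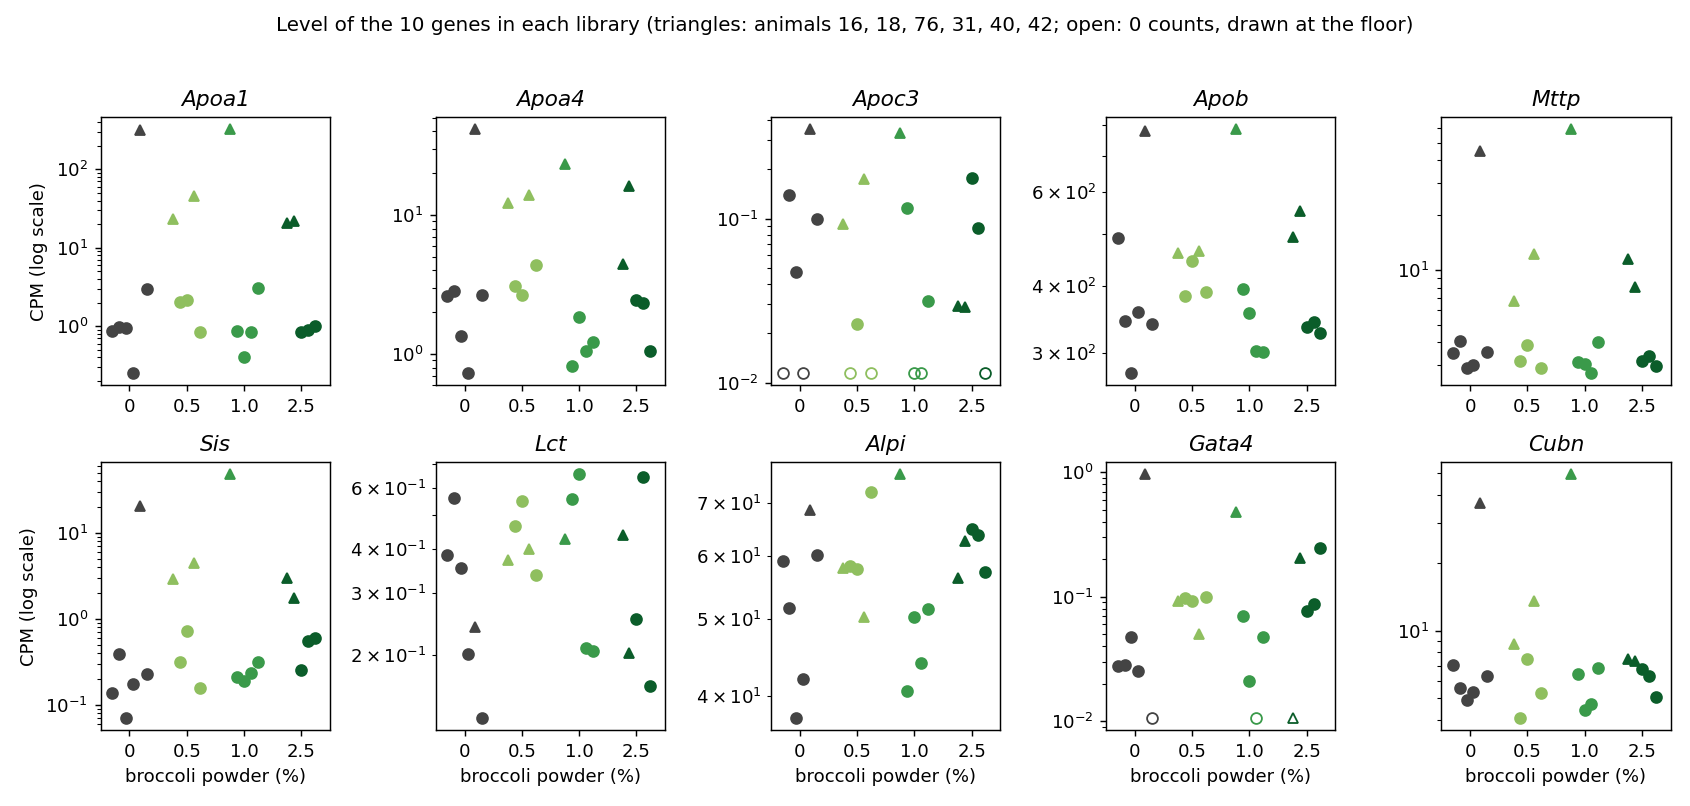
Level of each of the 10 genes in CPM (log axis) by broccoli powder in the diet, 1 point per library. Triangles are the 6 named libraries and open symbols are counts of 0. Alpi lies in 1 band across all libraries, as does Apob apart from 0% replicate 5 and 1.0% replicate 1, which lie above. In Apoa1 and Sis the triangles lie above all other points.

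Sis (ENSMUSG00000027790, chr3:72888557-72967863, minus strand), sucrase-isomaltase, followed Apoa1 in its spread. At 0% the lowest, median and highest libraries were at 0.0707, 0.204 and 20.5 CPM, and the 0.5% replicates were at 2.95, 0.319, 0.731, 4.44 and 0.159 CPM. The 1.0% replicates were at 48.1, 0.210, 0.190, 0.235 and 0.317 CPM and the 2.5% replicates at 3.02, 1.74, 0.253, 0.554 and 0.597 CPM. The 6 named libraries were the 6 highest and gave 94.8% of the counts. Sis differed between the 2 highest libraries, with 936 counts in 0% replicate 5 and 2025 in 1.0% replicate 1, although Apoa1 was at 317 and 323 CPM there.

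Lct (ENSMUSG00000026354, chr1:128284756-128328318, minus strand), lactase, had 4 to 31 counts per library and was highest in 1.0% replicate 3, at 0.655 CPM. None of the 6 named libraries was among its 6 highest, and they gave 25.2% of its counts. Lct was thus low in every library, the named ones included, whereas Sis, another disaccharidase, reached 151 times its own median.

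Alpi (ENSMUSG00000079440, chr1:87098002-87101606, minus strand) was, like Apob, measured at a high level in every library. At 0% its lowest, median and highest libraries were at 37.6, 55.4 and 68.5 CPM, and over all 21 libraries it ran from 37.6 CPM to 76.02 CPM in 1.0% replicate 1. The highest library was 1.32 times the median, and the 6 libraries gave 29.9% of the counts. The median was 24.7 RPKM, rank 1402 of 25268 genes, which sets it beside Apob at 27.5 RPKM. Its near copy Akp3 had 0 to 6 counts per library, and reads that fit both genes could have been assigned to either.

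Cubn (ENSMUSG00000026726, chr2:13276338-13491813, minus strand) was present in every library and higher in a few. At 0% the lowest, median and highest libraries were at 4.92, 5.95 and 37.02 CPM, the 0.5% replicates at 8.74, 4.09, 7.45, 13.5 and 5.28 CPM, and the 1.0% replicates at 49.4, 6.45, 4.46, 4.73 and 6.84 CPM. The 2.5% replicates were at 7.50, 7.32, 6.74, 6.30 and 5.07 CPM. In 5 of the 6 named libraries Cubn was above all other 15, while 2.5% replicates 1 and 2 lay on either side of 0.5% replicate 3, the highest unnamed library. Amn, which anchors cubilin in the membrane, was at 0.177 to 2.54 CPM and highest in 0% replicate 5. Cubn shares 368 exonic bases with the opposite-strand gene Gm13270, which is not in the table.

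Gata4 (ENSMUSG00000021944, chr14:63198922-63271692, minus strand) had 116 counts in all, 44 of them in 0% replicate 5 and 20 in 1.0% replicate 1. The other 19 libraries had 0 to 9 counts, and 3 had 0. Gata5 and Gata6, related factors, were at 1.84 to 5.05 CPM and 35.8 to 57.97 CPM in the 15 unnamed libraries, and Gata5 was at 6.02 to 25.6 CPM in the 6. Hnf4a, a general regulator of gut epithelium, was at 1127 to 1659 CPM, its relative Hnf4g at 77.5 to 219 CPM, and Cdx2, which sets intestinal identity, at 313 to 442 CPM. Gata4 was thus the lowest member per kilobase by its median, at 0.0179 RPKM.

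**Figure D2:**
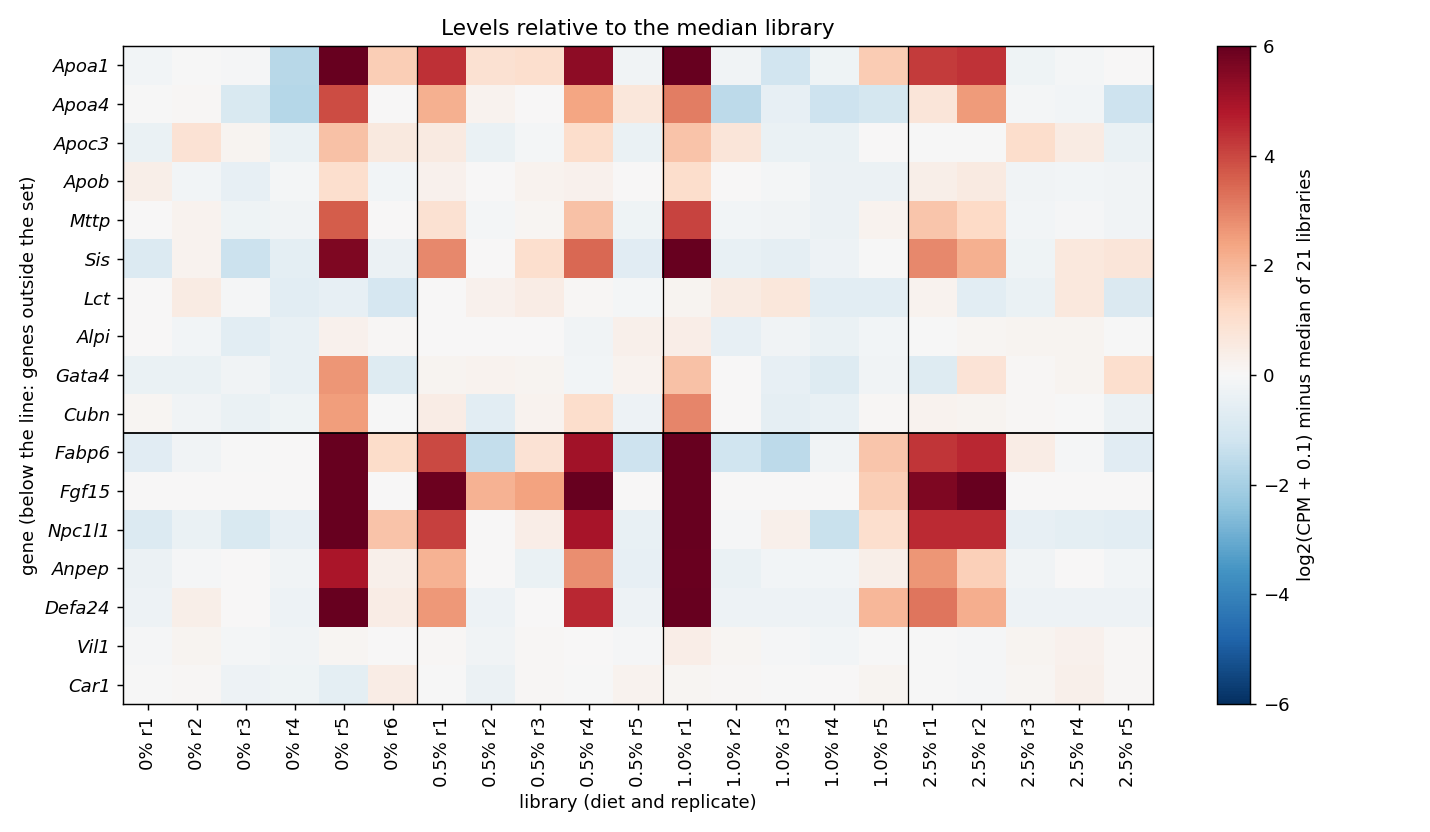
Log2(CPM + 0.1) of the members and of 7 other genes minus each gene's median over the 21 libraries, with libraries in columns by diet; colours stop at 6 log2 units either way. The columns of 0% replicate 5 and 1.0% replicate 1 are high in Apoa1, Apoa4, Sis, Mttp and Cubn, and on few counts also in Gata4 and Apoc3. Apob is at 2.04 and 2.05 times its median there, a small step on this scale, and Alpi and Lct show no such column.

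Over all genes that passed the filter on low counts, 43 of 15652 (0.275%) had all 6 named libraries above all other 15, and the members with this pattern were Apoa1, Apoa4, Mttp and Sis, 4 of the 8 that passed. Because the libraries were picked on markers that include members, that count supports nothing by itself. Apob had 4 of the 6 libraries above all others, Apoc3 and Gata4 had 2 each, Alpi had 1 and Lct had 0.

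Markers of the ileum, the last stretch of small intestine before the cecum, were high in the same libraries, some of them having served to pick these. Fabp6, the bile acid binding protein of ileal enterocytes, reached 63.3 CPM in 0% replicate 5, against 71.7 CPM in 1.0% replicate 1, and the other 4 named libraries held 9.43, 19.8, 11.8 and 13.98 CPM. In the 15 unnamed libraries it was at 0.106 to 1.84 CPM. Of the 6 genes fixed for ileal bile acid handling, 3 (Fabp6, Fgf15 and the bile acid transporter Slc10a2) had all 6 libraries above the rest, and all 6 genes peaked in 0% replicate 5 or 1.0% replicate 1. The share of all genes that peaked in either library was not taken. Both were the 2 highest of the 21 libraries in 3.18% of 15652 genes. Slc10a2 was also present in the 15, at 57.2 to 113 CPM. Fgf15, the hormone that ileal enterocytes release in response to bile acids, had 0 counts in 12 libraries. In those 12, Apob was still at 275 to 492 CPM, Alpi at 37.6 to 72.1 CPM, Cubn at 4.46 to 7.003 CPM and Mttp at 2.72 to 4.05 CPM, while Apoa1 was at 0.252 to 2.94 CPM and Sis at 0.0707 to 0.597 CPM. Apob and Alpi were thus high also where this ileal marker was not detected. The summed level of 9 Paneth cell genes, which mark the crypt base of the small intestine, was 5.02 to 350 CPM in the 6 libraries and 0.992 to 3.79 CPM in the 15. Of the 6, only 0% replicate 5 (107 CPM) and 1.0% replicate 1 (350 CPM) lay above 21.8 CPM. Defa17 and Defa30, 2 of the defensins, had 0 counts in all 15, but also in some of the 6, with 17 and 16 libraries at 0. Other genes of the list had counts in the 15, such as Lyz1 with 34 to 188 per library. The part of such cells in the member levels was not tested.

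Markers of other organs that express some of these genes were low. The 8 liver genes summed to 6.77 to 10.1 CPM in the 6 libraries and 6.28 to 13.1 CPM in the 15, with Alb at 0 to 4 counts per library and Fgb at 0 in all. Most of this sum was Ttr, at 5.01 to 11.6 CPM over the 21 libraries. Of 6 kidney tubule genes, 4 (Umod, Aqp2, Slc22a6 and Kap) were at 0 in all libraries, Slc34a1 had 6 to 34 counts and Slc12a1 0 to 8 counts. The 6 summed to 0.289 to 0.853 CPM in the 6 libraries and 0.183 to 0.793 CPM in the 15. The 5 mesothelium genes, among them Msln at 0 to 20 counts per library, summed to 2.39 to 6.77 CPM in the 6 and 0.959 to 2.57 CPM in the 15, and all 5 peaked in 0% replicate 5 or 1.0% replicate 1, which was not tested further. Lrrn4, Msln and Wt1 of this list had only 92, 116 and 126 counts over all 21 libraries. The 10 genes of all gut epithelium summed to 5866 to 7304 CPM in the 6 and 5246 to 7568 CPM in the 15. Large bowel epithelium genes, 7 in number, summed to 5799 to 9251 CPM in the 6, lowest in 0% replicate 5, and to 8070 to 10690 CPM in the 15.

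Counts were also set against Fabp6 within a library, as a description. Fabp6 is high in the 6 libraries through their choice, which by itself lowers the ratio there for any gene that differs less. Per Fabp6 count the 6 libraries held 0.576 to 0.965 Mttp counts and 0.524 to 0.928 Cubn counts, while the 15 others held 2.20 to 28.8 and 3.72 to 42.2. For Apob the ratio was 10.9 to 48.9 in the 6 and 164 to 3372 in the 15, and for Alpi it was 1.06 to 6.16 and 28 to 477. For Apoa1 the ranges overlapped, at 1.56 to 4.999 and 0.50 to 16.4. Within the 6 libraries the highest ratio was 1.68 times the lowest for Mttp and 1.77 times for Cubn, against 4.47 times for Apob and 5.80 times for Alpi. For Apoa1, Apoa4 and Sis it was 3.20, 3.97 and 5.41 times. Members that were high in all 6 libraries thus differed in this spread, and Sis spread about as widely as Alpi. Sis per Apoa1 count spanned 0.0647 to 0.149 in the 6 libraries and 0.0750 to 0.700 in the 15. Among the 15, 1.0% replicate 5 had the most Apoa1, 194 counts, and also had 116 Fabp6 counts, and 0% replicate 6 came next in CPM with 89 and 36.

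**Figure D3:**
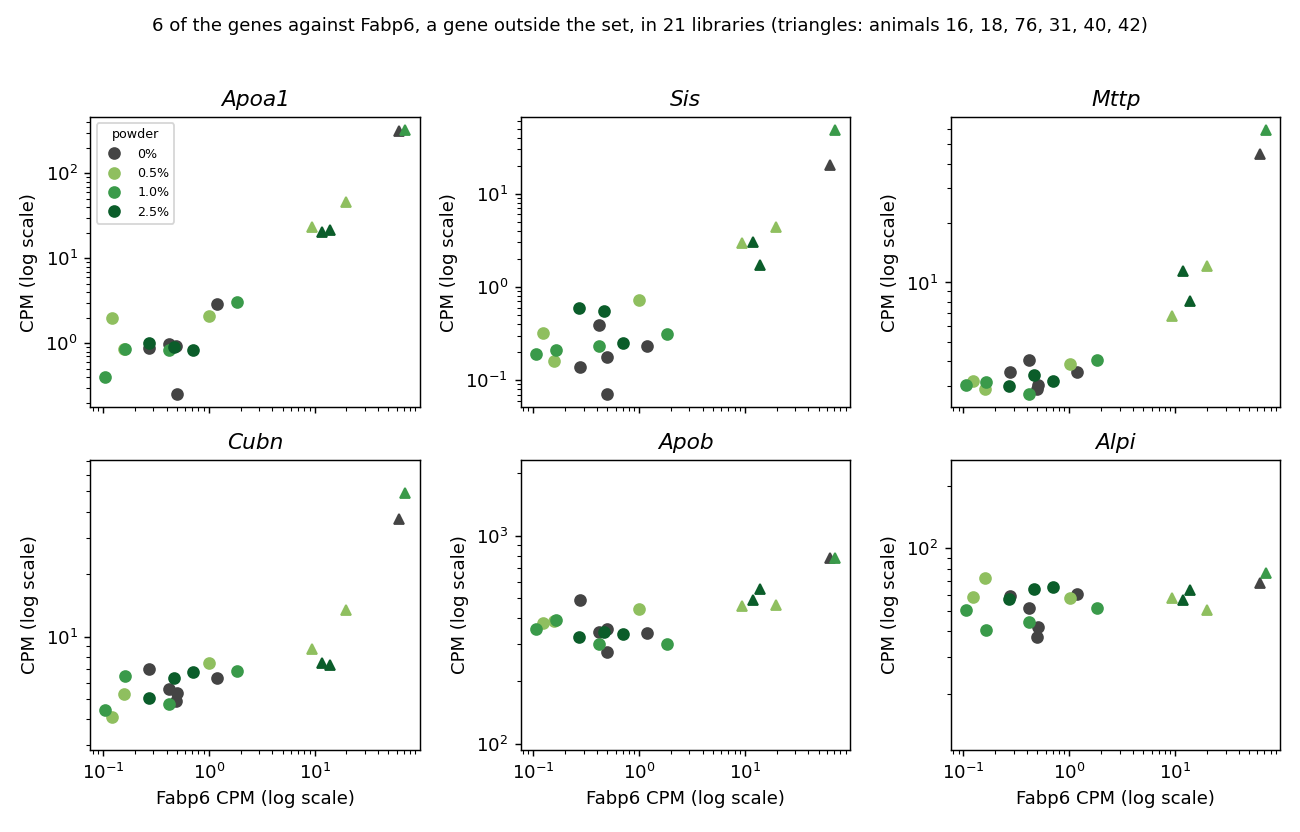
Level of 6 genes against the level of Fabp6 in the same library, both in CPM on log axes, 1 point per library with triangles for the 6 named libraries. Alpi stays at 37.6 to 76.02 CPM over the whole range of Fabp6, and all 6 triangles of Mttp lie above its other points, while 2 of the 6 triangles of Cubn lie at the level of its other libraries.

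Other genes of the same pathways also differed in how they spread over the libraries. In the lipid absorption list of 15 genes, Fabp2, an enterocyte fatty acid binding protein, was at 127 to 248 CPM in all 21 libraries, Rbp2, a retinol binding protein of enterocytes, at 4.07 to 12.2 CPM, and Creb3l3, a regulator of lipid genes, at 26.2 to 74.7 CPM, whereas the sterol exporters Abcg5 and Abcg8 were at 0 to 0.349 and 0.0271 to 0.602 CPM in the 15 and at 1.65 to 22.7 and 1.56 to 23.5 CPM in the 6. Npc1l1, the cholesterol uptake protein, was at 0.0261 to 0.959 CPM in the 15 and 5.49 to 53.6 CPM in the 6. Fabp1, the fatty acid binding protein of the upper small intestine, had 0 to 9 counts per library and 0 in 8 of them. Both belong to a list of 6 upper small intestine genes, in which only Npc1l1 had all named libraries above the rest. Fabp1 had 2 named libraries above the rest, Tmprss15 and Slc2a2 had 1 each, and Pdx1 and Onecut2 had 0. Among 13 brush border hydrolases, 6 had all named libraries above the rest. The aminopeptidase Anpep was at 7.89 to 14.5 CPM in the 15 and 30.5 to 682 CPM in the 6, and the glutamyl aminopeptidase Enpep was at 10.53 to 19.8 and 32.1 to 267 CPM. The glucose transporter Slc5a1 was at 53.4 to 72.5 CPM in the 15 and 70.3 to 199 CPM in the 6.

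Genes with the most similar pattern were found by the mean absolute difference in log2 CPM over the 21 libraries after each gene was centred on its median. Members were left out of this ranking, and predicted genes and genes that encode no protein were passed over, 1 of them nearer to Apoa1 than Npc1l1. Nearest to Apoa1 were Npc1l1 (0.67), Fabp6 (0.68) and Clca4b (0.70), and nearest to Sis were Naaladl1 (0.52), Slc13a1 (0.57) and Anpep (0.64). Nearest to Mttp were Enpep (0.23), St3gal4 (0.34) and Lgals2 (0.38), and St3gal4 (0.72) and Lgals2 (0.66) were also near Apoa4, with Slc15a1 (0.69). Nearest to Cubn were Suox, Slc28a2 and Slc26a6, each at 0.26. Apob lay nearest to Themis3 (0.14), Prepl (0.16) and Clec2h (0.17), and Alpi to Cwc25, Cdhr2 and Fam102b at 0.13 each. Lct lay at 0.35 to 0.37 from Npffr1, Rtp3 and Exoc3l2, against 0.48 from a flat line. A flat line lay at 0.20 from Alpi and at 1.18 from Apoa4. The nearest genes of Lct and Alpi thus resembled them little. None of these 8 members was another's closest gene, but Mttp (0.6915) lay nearer to Apoa4 than Slc15a1 (0.6935) and St3gal4 did.

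Broccoli in the diet was compared with 0% in 1 fit over all 21 libraries, with 8 of the 10 members tested, since Apoc3 and Gata4 fell under the filter. The edgeR quasi-likelihood test called 0 of the 8 at an adjusted p under 0.05 at 0.5%, 1.0% and 2.5% powder and for the slope per 1% powder, and 0 had an unadjusted p under 0.05. DESeq2 and limma voom also called 0, though DESeq2 gave no adjusted p for some members, among them Apoa1, Mttp, Sis and Cubn at 2.5%. Over all 15652 genes the edgeR test called 0.00639% at 0.5%, 0% at 1.0%, 0.109% at 2.5% and 0.147% for the slope. The 3 doses share the 6 control libraries.

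At 2.5% Apob was at 410 ± 105 CPM (SD, n = 5) against 431 ± 185 CPM (SD, n = 6) at 0%, a log2 fold change of -0.07 ± 0.27 (SE, edgeR adjusted p = 0.957). Alpi was at 61.0 ± 3.95 CPM against 53.2 ± 11.8 CPM, a log2 fold change of 0.20 ± 0.15 (edgeR adjusted p = 0.737). The difference in Apob was smaller than the SD of either diet, and that in Alpi was smaller than the SD at 0% but not at 2.5%. Apoa1 was at 8.996 ± 11.1 CPM against 53.8 ± 129 CPM, a log2 fold change of -2.59 ± 2.04 (edgeR adjusted p = 0.749), and Sis had a log2 fold change of -1.58 ± 1.69 (edgeR adjusted p = 0.815). The SD of Apoa1 exceeded its mean in each diet, and each diet held 1 or 2 libraries far above its others. Mttp, Cubn and Apoa4 had log2 fold changes of -0.84, -0.75 and -0.72, and Lct of 0.11, with SEs of 0.43 to 1.13.

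Without the 6 named libraries, 3 to 5 mice were left per diet and 0 members were called. The log2 fold change at 2.5% was then -0.36 for Apoa1, 1.22 for Sis, 0.31 for Alpi, -0.11 for Apob, -0.10 for Mttp, -0.06 for Apoa4, 0.05 for Cubn and 0.09 for Lct. The lowest edgeR adjusted p among them was 0.313, for Alpi, and 2 members (Sis and Alpi) had an unadjusted p under 0.05. The share of all genes at that unadjusted p was not taken. Sis and Cubn thus changed sign when those libraries were left out. At 1.0% the log2 fold change of Sis was 1.42 with all libraries and 0.27 without the 6, and that of Apoa1 0.28 and 0.16.

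The members as a list had 2 of 8 log2 fold changes above 0 at 0.5%, 5 of 8 at 1.0% and 2 of 8 at 2.5%, against 49.2%, 49.4% and 46.9% of all genes. Their median log2 fold change was -0.38, 0.33 and -0.74, beside -0.00297, -0.00215 and -0.0111 over all genes. Single libraries moved the log2 fold change of Apoa1 at 1.0%, which was 0.28 with all libraries. Without 1.0% replicate 1 it turned sign, to -5.31, and without 0% replicate 5 it rose to 5.83.

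**Figure D4:**
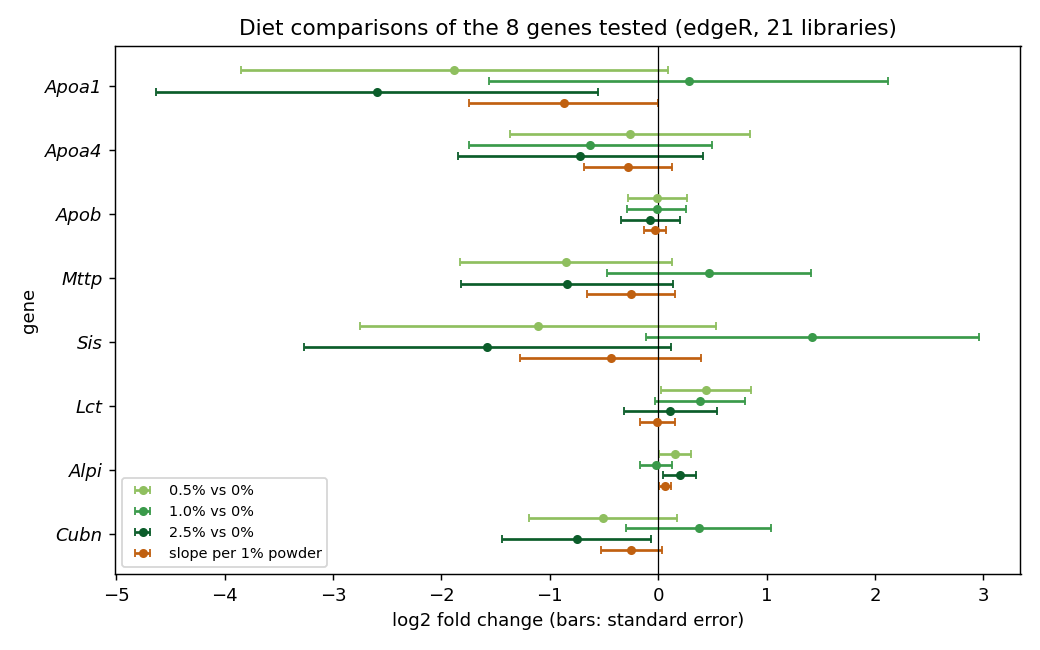
Log2 fold change (points) and standard error (bars) of the 8 tested members for each broccoli dose against 0% and for the slope per 1% powder. Apob and Alpi lie close to 0 with short bars, while the bars of Apoa1 reach 2.04 log2 units.

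None of the genes in the other lists was called in these comparisons by edgeR. The lowest adjusted p values at 2.5% were those of Prdm1, a repressor of adult enterocyte genes in the immature gut (log2 fold change 0.68 ± 0.19, SE, edgeR adjusted p = 0.231), and Fabp2 (0.44 ± 0.13, edgeR adjusted p = 0.251). Apobec1 had a log2 fold change of 0.45 ± 0.16 (edgeR adjusted p = 0.428). In the lipid absorption list 0 of 14 tested genes passed in either direction and 3 had an unadjusted p under 0.05 at 2.5%. The share of all genes at that unadjusted p was not taken.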

How the data were processed

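RNA-seq of cecum from 21 mice was used. Per the labels' protocols, mRNA libraries that keep the strand were made by ligation. The authors deposited 1 table of raw read counts per gene, and the submitters' processing notes name mm10. Aligner, counter and strand use: not given in the sources used here. Values were whole, all per-sample columns were mapped by name, and 5881 of 25361 identifiers were 0 throughout. Names, coordinates and exon lengths are from GENCODE mouse release 21, which held 25268 identifiers. Totals were 28514263 to 58594569 counts. Between pairs of libraries of a diet, chi-square over its degrees of freedom was at least 17.1 (genes with 20 or more summed counts), so none was a duplicate.

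Members and lists were chosen with earlier results of these data known. CPM are counts over TMM-scaled library totals, and RPKM are CPM per kilobase of merged exons. Genes were tested, two-sided, with edgeR 4.0.16 (R 4.3.3, TMM, filterByExpr, robust quasi-likelihood fit, 15652 genes) and Benjamini-Hochberg adjustment over all genes, called under 0.05, after a test on simulated data. Alternatives used DESeq2 1.42.0, limma 3.58.1 and other scalings, filters and libraries. By the rule for names, all members, a fixed set of anchor genes and the 3 genes nearest to each member (log2 CPM, prior count 2) are named. Abcg5, Abcg8, Enpep, Fgf15, Npc1l1, Prdm1, Aqp4, Trmt10a and single marker genes were picked after their values were seen. Lists not given elsewhere (smooth muscle, heart, stomach and pancreas genes, transporters, transcription factors) are described in the closing section. Libraries carry animal numbers and were taken as separate mice, so p-values measure the spread between them. 1 anchor gene of the large bowel list is not reported here and was left out of that list.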

Additional observations from a re-analysis of the deposited data

Results flagged for a closer look

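In the 40 groups of 1 gene and 1 diet, 15 had a highest or lowest library that stood farther from the next one than Dixon's 95% limit allows. Chance flags about 1 in 20 such groups, and the flags are not independent, since most fall in the same libraries. In 0% replicate 5 there were 6, all high, with Apoa1 at 317 CPM, Apoa4 at 41.4 CPM, Mttp at 44.9 CPM, Sis at 20.5 CPM, Gata4 at 0.963 CPM and Cubn at 37.02 CPM. In 1.0% replicate 1 there were 7, all high, with Apoa1 at 323 CPM, Apoa4 at 23.3 CPM, Apob at 784 CPM, Mttp at 59.1 CPM, Sis at 48.1 CPM, Gata4 at 0.475 CPM and Cubn at 49.4 CPM. Apoa4 in 2.5% replicate 2 stood high at 16.1 CPM. Gata4 in 0.5% replicate 4 stood low at 0.0501 CPM, which is 2 counts. Alpi, Lct and Apoc3 had no such library in any diet.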

How the results depend on the processing

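No member was called in any of 124 alternative counts of members called, which gave 0 each. Of 976 alternative log2 fold changes, 886 kept their sign and 90 turned, and 0 passed the threshold, with a lowest adjusted p of 0.313. Genes called among all tested at 2.5%, 17 with the edgeR fit above, were 80 with DESeq2, 7 with limma voom, 7 with library totals, 10 without the robust fit, 5 without the animals numbered above 70, 121 without the 6 named libraries 0 with only the 2 diets in the fit, and 0 to 56 with 1 mouse left out (0 without any one of 2.5% replicates 3, 4 and 5). The slope gave 23, against 60 with DESeq2, 9 with limma voom, 13 without the animals numbered above 70, 101 without the 6 libraries 0 with dose as a rank and 0 to 56 with 1 mouse left out. At an unadjusted p under 0.05, members numbered 4 at 0.5% and 3 at 2.5% without 0% replicate 5 and 1.0% replicate 1 together, and at 1.0% 4 without the former and 3 without the latter. The share of all genes at that p was not taken. In each of these fits only 1 of the 2 diets compared still held named libraries. Those were picked on markers that include members, so these counts support nothing by themselves. The log2 fold changes that turned sign were as follows. With limma voom they were Apoa1 0.77, Apoa4 0.76, Apob 0.0806 and Sis 0.82 at 0.5%, Apoa1 0.20, Apoa4 0.0394 and Sis 0.91 at 2.5%, Sis 0.27 for the slope. Without the 6 named libraries they were Apoa1 0.49, Apoa4 0.73, Apob 0.17 and Sis 1.00 at 0.5%, Mttp -0.0671 and Cubn -0.0509 at 1.0%, Sis 1.22 and Cubn 0.05 at 2.5%, Sis 0.39, Lct 0.00291 and Cubn 0.0228 for the slope. Without 0% replicate 5 and 1.0% replicate 1 together, a choice made after seeing the data, they were Apoa1 3.66, Apoa4 1.83, Apob 0.24, Mttp 0.76, Sis 3.08 and Cubn 0.42 at 0.5%, Mttp -0.0666 and Cubn -0.0508 at 1.0%, Apoa1 2.94, Apoa4 1.37, Apob 0.18, Mttp 0.77, Sis 2.61 and Cubn 0.17 at 2.5%, Apoa1 0.31, Apoa4 0.22, Apob 0.0408, Mttp 0.20, Sis 0.37 and Cubn 0.00873 for the slope. With library totals as scaling they were Apob 0.00518 and Alpi 0.00732 at 1.0%. Without the animals numbered above 70 they were Apob 0.0917 at 1.0%. With dose as a rank they were Sis 0.0545 and Lct 0.0381 for the slope. Leaving out 1 mouse at a time gave ranges that crossed 0. They were -2.98 to 3.67 for Apoa1, -0.65 to 1.83 for Apoa4, -0.11 to 0.24 for Apob, -0.80 to 0.42 for Cubn, -1.32 to 0.76 for Mttp and -1.88 to 3.08 for Sis at 0.5%. They were -0.19 to 0.0673 for Alpi, -5.31 to 5.83 for Apoa1, -2.81 to 1.47 for Apoa4, -0.35 to 0.24 for Apob, -0.98 to 1.30 for Cubn, -1.68 to 2.08 for Mttp and -3.89 to 5.61 for Sis at 1.0%. They were -3.24 to 2.96 for Apoa1, -1.76 to 1.37 for Apoa4, -0.21 to 0.18 for Apob, -0.90 to 0.17 for Cubn, -0.24 to 0.35 for Lct, -1.24 to 0.77 for Mttp and -2.23 to 2.61 for Sis at 2.5%. They were -1.03 to 0.28 for Apoa1, -0.71 to 0.21 for Apoa4, -0.0837 to 0.0409 for Apob, -0.30 to 0.00938 for Cubn, -0.13 to 0.077 for Lct, -0.37 to 0.20 for Mttp and -0.60 to 0.29 for Sis for the slope. The cause of these turns was not tested. No paired analysis was possible because replicate numbers only name libraries. Apoc3, Gata4 and Lct rest on few counts, so counting error limits their values.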

Other observations

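The 2 libraries highest in the members differed from each other in other genes. Aqp4, a water channel of the large bowel list, was at 209 CPM in 0% replicate 5, and at 8.15 to 31.5 CPM in the other 20 libraries, with 1.0% replicate 1 at 22.0 CPM. Fgf15, the hormone by which the ileum signals bile acid uptake to the liver, had 2612 counts in 0% replicate 5 and 882 in 1.0% replicate 1, while the Paneth cell defensin Defa24 was at 13.3 and 47.3 CPM there. Anpep was at 337 and 682 CPM. Maf, a transcription factor, was at 27.9 to 57.1 CPM in the 15 unnamed libraries and reached 224 CPM in 1.0% replicate 1.

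Among lists named for other sources, smooth muscle genes summed to 969 to 2169 CPM in the 6 named libraries and 843 to 2185 CPM in the 15, and pancreatic acinar genes to 19.1 to 27.2 and 18.4 to 28.9 CPM, nearly all of it Cela1 (18.3 to 28.8 CPM over the 21 libraries), with Pnlip and Amy2a5 at 0 throughout. Stomach genes summed to 0.125 to 0.608 and 0.0233 to 0.846 CPM, and heart muscle genes to 0.492 to 2.76 and 1.14 to 2.35 CPM. The 10 nutrient transporters summed to 155 to 486 CPM in the 6 and 132 to 155 CPM in the 15, and the 12 intestinal transcription factors to 2483 to 2798 and 2262 to 2993 CPM. The 6 cubilin partner and cobalamin genes summed to 69.8 to 95.3 and 72.6 to 92.3 CPM.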
